A study of Mus musculus with 32 samples.

Results

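The T-box genes encode transcription factors that share a DNA-binding domain, the T-box, and 10 of them are described here: T, Eomes, Tbx1, Tbx2, Tbx3, Tbx4, Tbx5, Tbx6, Tbx20 and Mga. They were chosen by symbol from the 24028 symbols of the RNA-seq tables, and all 10 are listed in both libraries. They were taken up with their levels in these libraries already known, so every difference below is a description and carries no test. RNA-seq was performed on mouse embryonic stem cells (mESCs) that were wild type (WT) and on mESCs labelled Eed-/-, with 1 library per genotype. EED is the subunit of Polycomb repressive complex 2 (PRC2) that binds methylated lysine 27 of histone H3 (H3K27me3), the mark this complex deposits. Both libraries carry the strain label TT2, whereas the Eed-/- samples of other assays in the series carry a different strain label, and how the Eed allele was altered in this line is not given in the sources used here. Cells of both genotypes were grown in serum and leukemia inhibitory factor on gelatin, and neither received a treatment.

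T-box proteins bind short sites around a GTGTGA-like core and either activate transcription or, as TBX2 and TBX3 do with Groucho-type partners, repress it. In the early mouse embryo Eomes and T (brachyury) drive the formation of mesendoderm and mesoderm in the primitive streak, and Tbx6 acts in the paraxial mesoderm that follows. Tbx1, Tbx5 and Tbx20 are known for the pharynx and heart, and Tbx4 and Tbx5 for the hindlimb and forelimb. In mESCs Tbx3 belongs to the LIF-responsive circuit of naive pluripotency, and Mga, which has a T-box and a MAX-type helix-loop-helix domain, is part of a variant Polycomb complex on germline genes. Many of these genes lie in DNA methylation valleys (DMVs), long unmethylated regions over developmental promoters that often carry H3K27me3.

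Levels are given as FPKM, fragment numbers divided by transcript length and by the mapped total, which can be compared between genes. Among 5048 genes annotated with a single transcript, the steps between low values gave a depth of about 7120000 fragments (WT) and 6330000 fragments (labelled Eed-/-). At these depths, which were chosen to make this share high, 80.8% and 81.1% of low values lay within 0.1 of a whole fragment. With the transcript lengths shuffled, the shares at the same depths were 20.5% and 21.0%. An FPKM of 1 on a 2 kb transcript then stands for 13.1 and 11.6 fragments. Every interval below is a 95% interval from these fragments (exact Poisson for a level, exact conditional binomial for a ratio) and covers counting error only, not the spread between cultures, which 1 library per genotype cannot show. The Eed transcript (chromosome 7, 97103166 to 97129493, mm9) did not separate the genotypes: its FPKM was 63.0 (WT) and 70.9 (labelled Eed-/-), a ratio of 1.13 (interval 1.02 to 1.24), so that library is named by its label throughout. A transcript level does not show whether working EED protein is made. The paper reports that it checked the loss of Eed in its Eed-/- mESCs by H3K27me3 in western blots and ChIP-seq. The 8 mESC markers summed to an FPKM of 1447 and 1449, none of them past 2-fold, with Pou5f1 the highest at 392.5 and 373.1. Of 10 feeder fibroblast markers, Dcn was listed at 0 in both libraries. Col1a1 was at 0.460 in WT and 0.137 in the other library, and S100a4 at 0 and 0.483. Only Thy1 passed 2-fold (FPKM 0.976 and 6.97).

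The sequence before the transcription start is shown for 5 T-box genes that differed in their RNA values. Eomes and Tbx21 were more than 2-fold higher in the library labelled Eed-/-, Tbx18 came from near 0, and T and Tbx20 stayed below an FPKM of 1 in both libraries. Mga and Tbx3, which had the highest levels of the T-box genes, are not shown. Each is the 250 bases upstream of a RefSeq start on GRCm38.p6, read 5′ to 3′ on the strand of the gene, with every CpG in capitals.
Eomes (chr9:118477939-118478188, plus strand): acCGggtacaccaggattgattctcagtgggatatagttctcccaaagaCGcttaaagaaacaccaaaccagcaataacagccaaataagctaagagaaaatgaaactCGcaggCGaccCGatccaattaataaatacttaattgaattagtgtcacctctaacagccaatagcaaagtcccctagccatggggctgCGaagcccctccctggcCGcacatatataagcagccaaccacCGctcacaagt
Tbx21 (chr11:97115332-97115581, minus strand): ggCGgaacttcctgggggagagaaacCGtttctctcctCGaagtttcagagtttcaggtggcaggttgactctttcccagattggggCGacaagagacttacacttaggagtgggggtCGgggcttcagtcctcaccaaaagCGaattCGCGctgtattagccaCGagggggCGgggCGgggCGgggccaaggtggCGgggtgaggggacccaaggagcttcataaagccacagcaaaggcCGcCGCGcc
Tbx18 (chr9:87731261-87731510, minus strand): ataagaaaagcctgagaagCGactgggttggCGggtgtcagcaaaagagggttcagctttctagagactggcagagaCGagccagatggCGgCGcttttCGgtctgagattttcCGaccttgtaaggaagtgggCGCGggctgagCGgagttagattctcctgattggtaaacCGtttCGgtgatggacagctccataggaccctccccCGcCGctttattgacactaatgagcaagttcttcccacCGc
T (chr17:8434173-8434422, plus strand): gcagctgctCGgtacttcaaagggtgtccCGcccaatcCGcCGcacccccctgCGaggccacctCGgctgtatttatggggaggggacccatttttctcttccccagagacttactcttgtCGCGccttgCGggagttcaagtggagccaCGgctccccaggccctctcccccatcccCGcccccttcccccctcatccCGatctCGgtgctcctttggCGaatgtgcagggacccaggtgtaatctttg
Tbx20 (chr9:24774304-24774553, minus strand): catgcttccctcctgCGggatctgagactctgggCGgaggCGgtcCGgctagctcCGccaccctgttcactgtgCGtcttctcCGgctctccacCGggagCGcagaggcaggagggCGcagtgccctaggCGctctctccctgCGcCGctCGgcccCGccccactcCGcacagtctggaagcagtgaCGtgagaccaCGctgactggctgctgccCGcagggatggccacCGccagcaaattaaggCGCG

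The windows differed in CpG number. Eomes, which was higher in the library labelled Eed-/-, had 8 CpGs and 46.4% G and C, the fewest of the 5, and Tbx20, whose level hardly differed, held 22 CpGs and 68.8%. Tbx21 held 16, Tbx18 held 15 and T held 14. The median over all 32851 windows of this length in the RefSeq table was 6 CpGs and 52.4% G and C, so all 5 had more CpGs than the median window. Eomes, Tbx18 and Tbx20 are in the mESC DMV list of the study, and T and Tbx21 are not. Of the other members, Mga had 18 CpGs, the 2 starts of Tbx1 had 17 and 10, and Tbx4 and Tbx6 had 6 each. In all, 7 of the 10 genes had an entry, and Tbx2, Tbx3 and Tbx5 did not. The letters GGTGTG, a core of the T-box site, were searched on both strands as the only motif and were found in 0 of the 16 windows of T-box genes and in 16.3% of all windows.

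Tbx3, which encodes a repressor and a supporter of naive pluripotency, had the largest difference of the 10 genes. It lies on chromosome 5 from 120120678 to 120134733 on the plus strand (mm9, GENCODE vM1). Its FPKM was 6.79 in the WT library and 29.5 in the one labelled Eed-/-, about 233 and 899 fragments on its longest coding transcript. The counting intervals of the levels, 5.94 to 7.72 and 27.6 to 31.4, did not overlap. The ratio was 4.34 (interval 3.75 to 5.03), and after quantile normalization the difference in log2(FPKM + 1) was 2.14. In bulk RNA, more cells that express a gene and more RNA per cell cannot be told apart. Gm2301, an antisense transcript, overlaps Tbx3 in the annotation and has no values of its own, and the strand setting used in counting is not given in the sources used here, so its reads cannot be separated from those of Tbx3. Tbx3os2, a noncoding gene listed separately, was at an FPKM of 0.705 and 0.792.

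Of the 3 genes of the primitive streak and early mesoderm, Eomes passed 2-fold. Eomes (chromosome 9, 118387330 to 118395250, plus strand) was at an FPKM of 0.478 (WT) and 1.93 (labelled Eed-/-), about 12 and 42 fragments. The intervals of the levels, 0.256 to 0.866 and 1.41 to 2.64, did not overlap, and the ratio was 4.04 (interval 2.03 to 8.21). The difference on the log2(FPKM + 1) scale was 1.03, smaller than the ratio because the added 1 is large beside such low levels. With the FPKM as deposited it was 0.99, just under 2-fold.

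T, the brachyury gene of the streak and notochord (chromosome 17, 8627288 to 8635361, plus strand), was at an FPKM of 0.296 and 0.581, about 4 and 7 fragments. Its ratio of 1.96 had an interval of 0.500 to 9.17, so a difference was not detectable at this depth. Tbx6, needed for paraxial mesoderm (chromosome 7, 133924997 to 133929074, plus strand), rested on 1 and 2 fragments, at an FPKM of 0.0899 and 0.202. For T and Tbx6, then, the intervals of the 2 libraries overlapped, and Eomes was the only gene of the 3 above an FPKM of 1 in either library.

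The T-box genes of heart, pharynx and limb stayed below an FPKM of 1 in both libraries. Tbx20, a gene of heart muscle and valves (chromosome 9, 24527648 to 24578746, minus strand), was the highest of them in both libraries, with FPKM values of 0.660 (WT) and 0.595 (labelled Eed-/-), about 18 and 15 fragments. Its ratio was 0.902 (interval 0.440 to 1.97), and the interval of Eomes on the same chromosome began at 2.03. Both intervals rest on the longest coding transcript. With the shortest, Tbx20 had 5.58 and 4.47 fragments and Eomes 5.06 and 18.2, so both intervals would be wider and need not stay apart. Tbx4, the hindlimb gene (chromosome 11, 85699924 to 85729599, plus strand), was at 0.398 and 0.223, about 8 and 4 fragments, with a ratio of 0.560 (interval 0.124 to 2.10). It was the only other member with a lower FPKM in the library labelled Eed-/-, and the interval includes 1. Tbx2, a repressor in heart and limb (chromosome 11, 85646053 to 85655450, plus strand), was at 0.123 and 0.183, about 3 and 4 fragments.

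Tbx1, the gene of the pharyngeal arches (chromosome 16, 18581806 to 18588113, minus strand), rested on about 1 fragment in each library, at an FPKM of 0.0861 and 0.0966. Tbx5, the gene of the forelimb and the heart (chromosome 5, 120284672 to 120335227, plus strand), was listed at 0 in WT, where the interval reaches up to an FPKM of 0.137. In the library labelled Eed-/- it was at 0.0412, about 1 fragment. For Tbx1 and Tbx5 a difference was not detectable at this depth, and for Tbx2 the interval of the ratio ran from 0.254 to 10.2. Tbx2 and Tbx4 lie 44.5 kb apart and Tbx3 and Tbx5 149.9 kb apart on the same strand. Tbx3, with its ratio of 4.34, thus lies next to a gene with 0 and 1 fragments.

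Mga, the largest of these genes and the only one that pairs with MAX (chromosome 2, 119722964 to 119795317, plus strand), was expressed in both libraries. Its FPKM was 22.3 in the WT library and 29.1 in the other, about 2189 and 2535 fragments. The ratio was 1.30 (interval 1.23 to 1.38) and the log2 difference 0.56, below the 2-fold threshold. The interval excludes 1 by counting error, but so does that of Eed itself (ratio 1.13), and no replicate shows how far 2 cultures of 1 genotype differ.

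**Figure D1:**
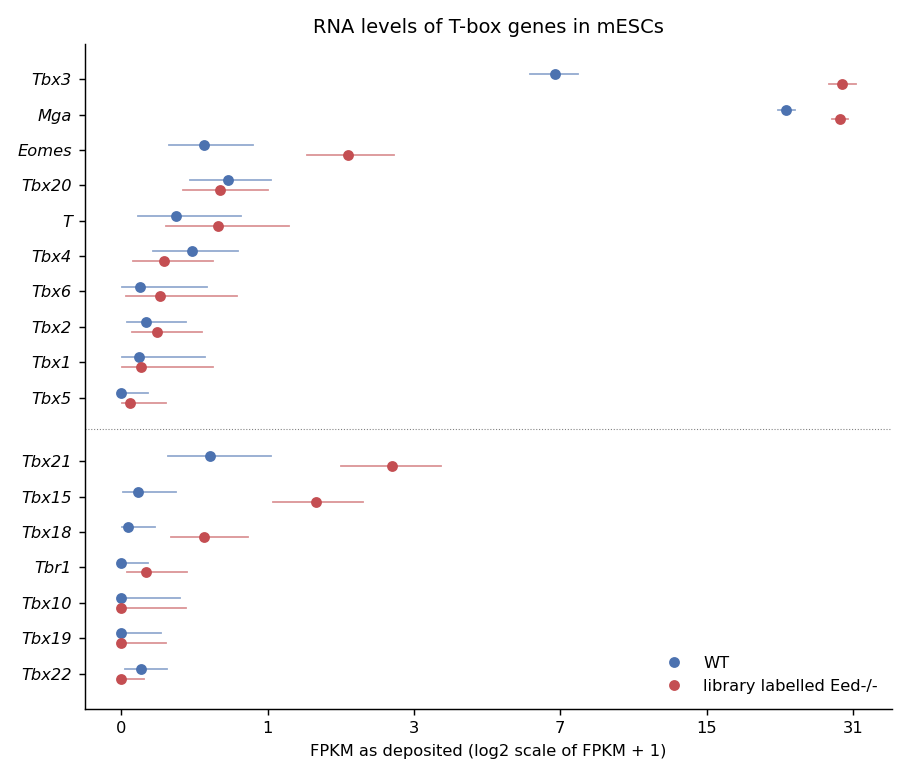
FPKM of the 17 T-box genes (horizontal axis, log2 scale of FPKM + 1) in WT (blue) and in the library labelled Eed-/- (red), the 10 genes described first and the 7 other T-box genes under the dotted line. Points are the deposited values and lines are 95% counting intervals. Tbx3 moves from 6.79 to 29.5, next to Mga, and Eomes is the only other gene of the 10 whose level in the library labelled Eed-/- lies between 1 and 3.

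A minimum mean FPKM of 0.1 after normalization was reached by 8 of the 10 genes. Of these, Tbx3 and Eomes (2 genes) passed 2-fold upward, as 3.8% of the 14835 genes tested did. None passed 2-fold downward, where 3.98% of all genes did. The median difference of the 8 was 0.21 on the log2 scale and that of all genes 0.01. Tbx1 and Tbx5 did not reach the mean of 0.1, and Tbx6 reached it only through the library labelled Eed-/- (0.0947 and 0.197 after normalization). At a threshold of 1.5-fold, which 12.3% of all genes passed upward and 12.4% downward, the counts of the members were the same. Since the genes were taken up with these values known, nothing is read from these shares. By the deposited FPKM, 8 of the 10 were higher (30.9% of all 24028 symbols) and 2 lower (39.1% of all symbols), with the rest of the symbols equal.

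Of all 24028 symbols, 7.05% are in the list of mESC DMV genes that accompanies the study, and of the 10 genes 5 are: Eomes, Tbx1, Tbx2, Tbx3 and Tbx20. Of these 5, Tbx3 and Eomes passed 2-fold, Tbx20 had a ratio of 0.902, and Tbx1 and Tbx2 rested on 1 to 4 fragments in each library. T, Tbx4, Tbx5, Tbx6 and Mga are not in that list, and none of them passed 2-fold. Genes of the listing were thus found both past 2-fold and at or near 0 in both libraries.

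**Figure D2:**
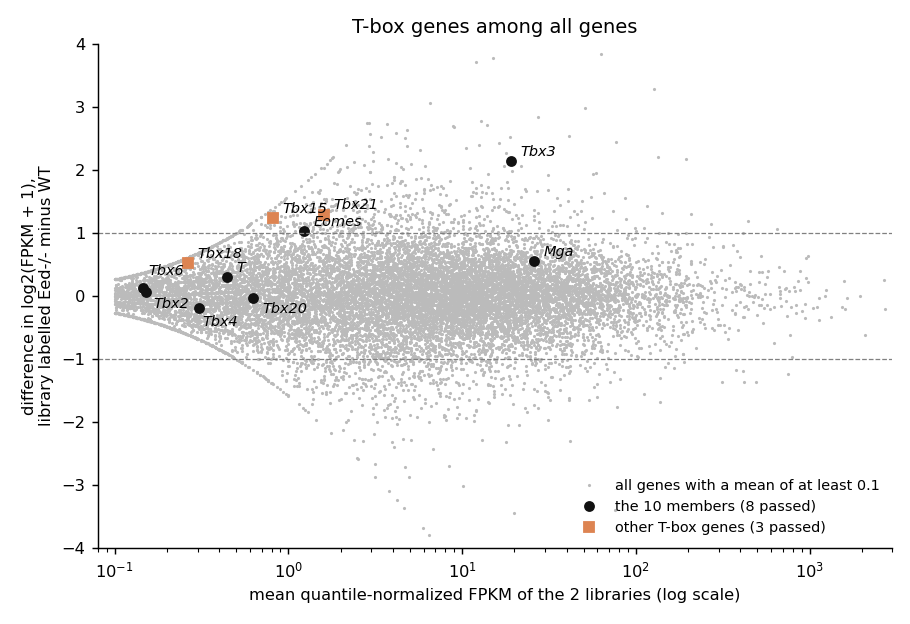
Difference in log2(FPKM + 1) after quantile normalization (vertical axis, library labelled Eed-/- minus WT) against the mean normalized FPKM of the libraries (horizontal axis, log scale) for all genes with a mean of at least 0.1 (grey), the T-box members that passed (black) and the other T-box genes that passed (orange). Dashed lines mark 2-fold, 71 genes lie outside the axes, and Tbx3 (2.14), Tbx21 (1.29), Tbx15 (1.23) and Eomes (1.03) lie above the upper line.

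The order of levels changed at its top. In WT, Mga (22.3) stood above Tbx3 (6.79), and Tbx3 above Tbx20 (0.660), each without overlap of the counting intervals. In the library labelled Eed-/-, Tbx3 (29.5) and Mga (29.1) had overlapping intervals. Eomes (1.93) stood below both and above Tbx20 (0.595) without overlap, with fragments counted on the longest coding transcripts. Below that, neighbours in the order overlapped in both libraries: Tbx20, Eomes, Tbx4, T, Tbx2, Tbx6, Tbx1 and Tbx5 in WT, and Tbx20, T, Tbx4, Tbx6, Tbx2, Tbx1 and Tbx5 in the other library. Summed over all 17 T-box genes, the FPKM was 31.98 (WT) and 67.1 (labelled Eed-/-). Mga made up 69.8% of it in WT and 43.3% in the other library, and Tbx3 21.2% and 43.9%. At an FPKM of at least 1 there were 2 of the 17 T-box genes in WT and 5 in the other library, where 44.6% and 44.3% of all symbols were.

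Of the 7 further T-box genes, 3 passed the minimum mean. Tbx15 and Tbx18 passed it only through the library in which they were high, so nothing is read from the direction these genes share. Tbx21, the gene of T-bet in T helper cells (chromosome 11, 96959385 to 96976645, minus strand), was at an FPKM of 0.525 (WT) and 2.61 (labelled Eed-/-), about 9 and 38 fragments, with a ratio of 4.98 (interval 2.26 to 11.2). Tbx15, a gene of skin and limb skeleton (chromosome 3, 99044304 to 99158182, plus strand), was at 0.0817 and 1.51, about 2 and 33 fragments, with a ratio of 18.5 (interval 4.75 to 159.6). Tbx21 and Tbx15 passed 2-fold on the log2(FPKM + 1) scale, at 1.29 and 1.23. Tbx18, a gene of the epicardium and somites (chromosome 9, 87597635 to 87626095, minus strand), was at 0.0308 and 0.482, about 1 and 14 fragments, with a ratio of 15.7 (interval 2.40 to 666) and a log2 difference of 0.52. Its level in the second library stayed under an FPKM of 1, where the added 1 keeps the log2 difference below 2-fold.

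Tbr1, a gene of cortical neurons, had 0 and 3 fragments, Tbx22, a gene of the palate, had 3 and 0, and Tbx10 and Tbx19 were listed at 0 in both libraries. Tbx15 and Tbx18 are also expressed in mesenchymal cells. Among the 10 feeder fibroblast markers, the summed FPKM was 2.15 (WT) and 8.04 (labelled Eed-/-), with Thy1 at 0.976 and 6.97. By the deposited FPKM, 4 were higher and 5 lower (30.9% and 39.1% of all symbols). S100a4 was at 0 and 0.483, Lum at 0 and 0.0817 and Col6a1 at 0 and 0.0408. Col1a1 was at 0.460 and 0.137, Col3a1 at 0.0772 and 0 and Dcn at 0 in both libraries. With 0.1 in place of 1 added before taking logs, 2 were past 2-fold higher and 1 lower (11.4% and 12% of all genes). The part of such cells in the values of Tbx15 and Tbx18 was not tested. Only Tbx18 of the 7 other T-box genes is in the list of mESC DMV genes.

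**Figure D3:**
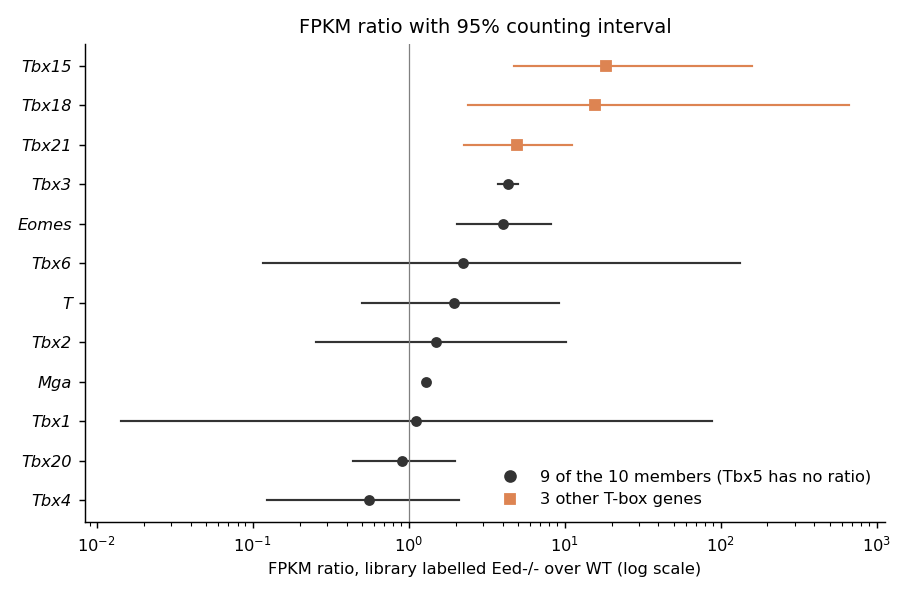
Ratio of the deposited FPKM, library labelled Eed-/- over WT (horizontal axis, log scale), for the 12 T-box genes with at least 1 fragment in both libraries. Lines are 95% counting intervals. The intervals of Tbx15, Tbx18, Tbx21, Tbx3, Eomes and Mga lie above 1, that of Tbx3 from 3.75 to 5.03, and the others include 1.

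Genes around Tbx3 and Eomes were read to see how far the differences extended. Only symbols with a single position in the annotation were placed, and Tbx3os2 is not among those placed near Tbx3. Within 500 kb of the start of Tbx3, 4 other genes were placed, and neither of the 2 that passed the minimum mean was past 2-fold. Rbm19, a ribosome assembly factor, was at an FPKM of 28.7 and 28.8 (log2 difference 0.20), and the noncoding Gm10390 at 0.500 and 0.494. Around Eomes, 5 genes passed, and Itga9, an integrin subunit whose start lies 128.5 kb away, was at 2.58 (WT) and 8.77 (labelled Eed-/-), a log2 difference of 1.55. Golga4, a Golgi protein whose start is nearer at 28.1 kb, was at 14.7 and 19.6 (0.56). The differences of the 5 ranged from -0.62 to 1.55, and Itga9 was the only one of them past 2-fold. Around Tbx21, 25 genes passed, with 1 higher (the pseudogene Gm11517, 1.46), 1 lower (Scrn2, -1.14) and a median of -0.08. Around Tbx2, 4 genes passed and none was past 2-fold, and around Tbx15 only Wars2 passed (-0.22).

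The chromosomes of the 10 genes were not shifted by much as a whole. Their median differences ranged from -0.01 on chromosome 7 to 0.08 on chromosome 2, and with the chromosome's median subtracted Tbx3 was at 2.13, Eomes at 0.998, just under 2-fold, and Mga at 0.47.

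**Figure D4:**
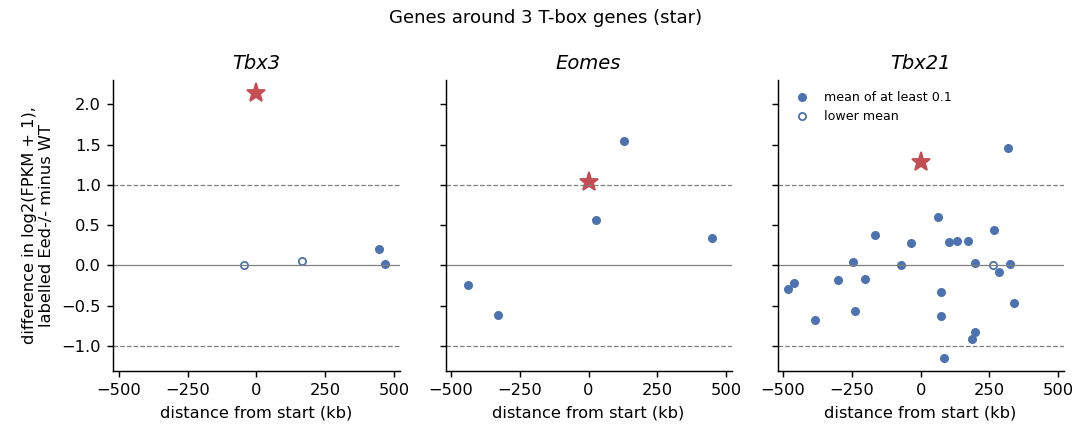
Differences in log2(FPKM + 1), library labelled Eed-/- minus WT (vertical axis), of the genes that start within 500 kb of Tbx3, Eomes and Tbx21 (horizontal axis, distance from the start of the T-box gene in kb). The star is the T-box gene, filled points have a mean normalized FPKM of at least 0.1 and open points less. Among genes with a single annotated position, Tbx3 (2.14) is the only one past 2-fold in its window, and Itga9 (1.55) stands above Eomes (1.03).

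The pathways around the members were described by lists of genes that are not T-box genes. Each count below is to be read beside the whole table, where 3.8% of genes passed 2-fold upward and 3.98% downward with a median of 0.01. These figures were 3.07% and 5.4% with the FPKM as deposited, and 11.4% and 12% when 0.1 in place of 1 was added before taking logs, a scale that gives low genes more weight. Lists that moved on these scales are given with both counts. Some genes reached the minimum mean only through the library labelled Eed-/-, among them Evx1, Fgf8, Hand1, Hand2, Pitx1, Sox17 and Tfap2a. Others, such as Nppa, Hnf4a and Cdx2, reached it only through WT. Nothing is read from the direction of either. The corepressors that T-box repressors recruit, of the Groucho and Ripply families, had 7 of 9 genes above the minimum mean, none past 2-fold, and a median of -0.15. With the FPKM as deposited 1 was lower, and with 0.1 added 3 were. Tle4 (FPKM 26.3 and 11.6, log2 difference -0.97), Ripply1 (4.10 and 1.86, -0.76) and Tle6 (4.37 and 1.94, -0.78) had the lowest log2 differences. Aes, the gene of this list with the highest level, was at an FPKM of 58.9 and 50.3. Of 8 cell-cycle and adhesion genes known as targets of TBX2 and TBX3, 7 passed, 3 rose (2 with the FPKM as deposited) and 1 fell, against 3.8% and 3.98% of all genes. Cdkn2a, the cell-cycle inhibitor locus that TBX2 and TBX3 are known to repress, was at 10.1 (WT) and 24.4 (labelled Eed-/-, log2 difference 1.36), Ndrg1 at 3.73 and 8.80 (1.16), and Cdkn2b at 0.909 and 2.81 (1.06). Cdh1, the E-cadherin gene that TBX3 is known to repress in other cells, was at 62.0 and 24.3 (-1.11). Of the rest that passed, Cdkn1a was at 3.91 and 2.51 (-0.41), Cdkn1c at 5.69 and 4.42 (-0.18) and Wnt11 at 0.160 and 0.298 (0.16). Whether the level of Tbx3 had a part in these values was not tested.

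Of the 17 naive pluripotency genes, among which Tbx3 itself was not counted, all passed the minimum mean, 2 rose and 1 fell (3.8% and 3.98% of all genes), with a median of 0.35. Prdm14, a repressor of DNA methyltransferase genes, was at an FPKM of 6.36 and 18.5 (1.57), and Zfp42 at 131.1 and 272.2 (1.30). Dppa3, which encodes the maternal factor Stella, was at 38.4 and 15.5 (-1.10). Whether reads from its processed pseudogenes entered these values was not tested. Of 18 genes of extraembryonic endoderm, a fate that TBX3 is known to promote in mESCs, 16 passed, 4 rose and none fell (3.8% and 3.98% of all genes), with a median of 0.41. With 0.1 added, 10 were higher and 1 lower, and the median was 1.25. The 3 largest rises were those of basement membrane genes: Lama1 from 8.25 to 33.5 (2.06), Col4a1 from 5.62 to 19.1 (1.76) and Nid1 from 8.36 to 21.2 (1.41). The transcription factors of this lineage had higher but low values within 2-fold on this scale, with Gata6 at 0.184 and 0.514, Sox17 at 0 and 0.449, Gata4 at 0.431 and 1.35 and Sox7 at 0.314 and 1.15.

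Among 19 genes of the primitive streak and mesendoderm, which stand upstream and downstream of Eomes and T, 16 passed, 3 rose and none fell (3.8% and 3.98% of all genes), with a median of 0.22. With 0.1 added, 6 were higher and 4 lower. Lefty2, a NODAL antagonist, was at an FPKM of 25.2 and 86.5 (1.95). Evx1 was at 0.0513 and 1.32 (1.15), and Gsc, a gene of the organizer, at 0.415 and 1.87 (1.06). Wnt3a at 1.08 and 0.241 (-0.73), Sp5 at 0.937 and 0.242 (-0.63), Mesp1 at 0.766 and 0.172 (-0.59) and Wnt3 at 0.424 and 0.106 (-0.37) had lower values. The added 1 kept all of these within 2-fold on the log2(FPKM + 1) scale. Of the 16, 10 had higher and 6 lower values in the library labelled Eed-/-. Evx1 and Fgf8, among the 10, passed the minimum mean only through that library, so nothing is read from these counts. In trophoblast, where Eomes also acts, 16 of 17 listed genes passed the minimum mean, 1 rose and 2 fell (3.8% and 3.98% of all genes), with a median of -0.13. With 0.1 added, 3 were higher and 4 lower. Tfap2c was at 39.8 and 9.21 (-1.85), the keratin gene Krt18 at 12.1 and 4.69 (-1.06) and Sox21 at 0.612 and 2.36 (1.10). Of the other trophoblast regulators, Elf5 was listed at 0 in both libraries and Ets2 was at 9.51 and 9.59. Cdx2 at 0.562 and 0.0788, Ascl2 at 2.41 and 1.30 and Gata2 at 0.452 and 0.304 had lower values. Tead4 at 2.49 and 3.67, Gata3 at 0.365 and 0.664, Tfap2a at 0.0906 and 0.304 and Hand1 at 0 and 0.541 had higher values.

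For the mesoderm of Tbx6 and T, 8 of 13 genes passed, none rose and 1 fell (3.8% and 3.98% of all genes), with a median of -0.29. With 0.1 added, 3 were lower. Lfng, of the segmentation clock, was at an FPKM of 3.09 and 0.736 (-1.18). For the heart, pharynx and limb, 15 of 22 genes passed, 2 rose (1 with the FPKM as deposited) and none fell (3.8% and 3.98% of all genes), with a median of 0.36. With 0.1 added, 6 were higher and 3 lower, and the median was 0.72. The gap junction gene Gja1 was at 23.9 and 46.1 (1.13), and Fgf10, a limb bud signal, at 0.252 and 1.66 (1.12). Of the genes of heart muscle itself, Tnnt2 and Actc1 were listed at 0 in both libraries, Myh6 was at 2.56 and 0.903, Smyd1 at 1.94 and 1.63, Myh7 at 0.330 and 0.185 and Nppb at 0.687 and 0.775. Tbx1, Tbx4, Tbx5 and Tbx20 stayed below an FPKM of 1 in both libraries, and a link between them and Gja1 or Fgf10 was not tested.

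Genes of the MGA and MAX network, not all of which are partners of MGA, mostly stayed within 2-fold. All 22 genes of the MGA and MAX network passed the minimum mean, none rose and only Tfdp1, a dimer partner of E2F6, fell (53.5 and 21.4, log2 difference -1.07), with a median of 0.08. With 0.1 added, 1 was higher and 2 lower. Of 14 germline genes known as targets of the MGA complex, 13 passed, 4 rose and 2 fell (3.8% and 3.98% of all genes), with a median of -0.19. Smc1b, a meiotic cohesin gene, was at 0.179 and 3.65 (2.02), and Sycp1, of the synaptonemal complex, at 1.44 and 7.14 (1.82). Dazl was at 0.709 and 4.08 (1.64), and Mael at 2.62 and 6.69 (1.19). Ddx4 (9.07 and 3.08, -1.19) and Hormad1 (3.79 and 1.22, -1.05) went the other way. Of the other 7 that passed, Stk31 (0.66) and Sycp3 (0.22) had higher values, and Slc25a31, Tdrd1, Tdrkh, Tex101 and Stag3 lower ones, from -0.55 to -0.19. The germline genes hence had no common direction, and a link to the ratio of 1.30 for Mga was not tested.

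**Figure D5:**
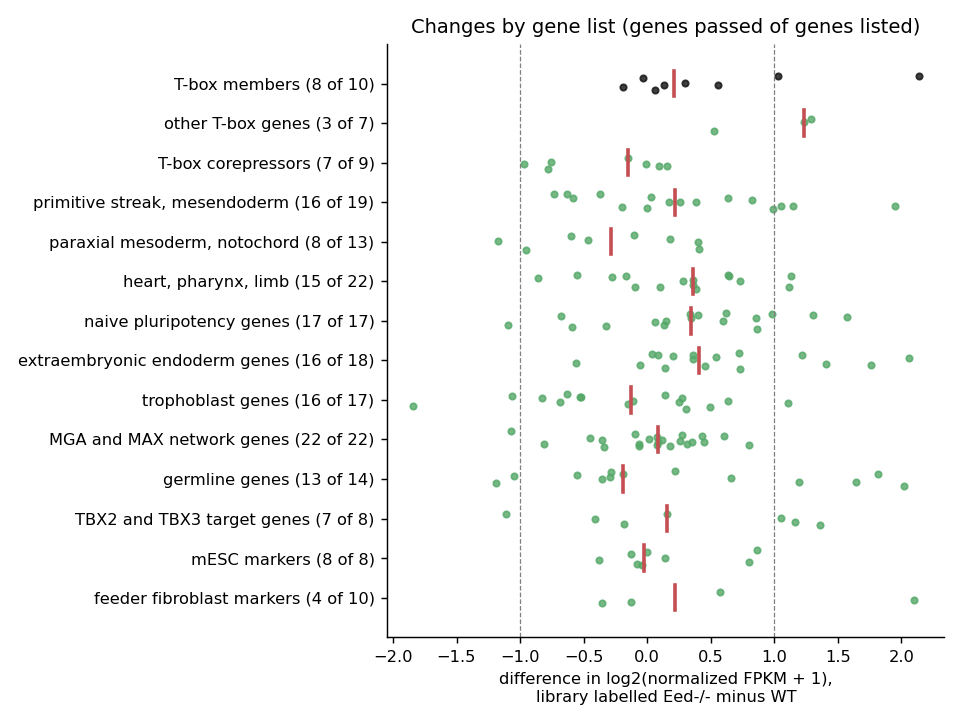
Differences in log2(normalized FPKM + 1), library labelled Eed-/- minus WT (horizontal axis), of the genes with a mean of at least 0.1 in each list, with the number passed of the number listed beside its name. Each point is a gene, spread vertically for visibility, red bars are medians and dashed lines mark 2-fold. The 8 T-box members spread from -0.19 (Tbx4) to 2.14 (Tbx3) around a median of 0.21.

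The genes nearest to Tbx3 in both libraries, by the distance of log2(normalized FPKM + 1) over the 2 libraries, were Timp1, an inhibitor of matrix proteases (FPKM 7.57 and 29.2, distance 0.14), the WNT inhibitor Notum (6.46 and 26.7, 0.16) and Slc9a3r2, a scaffold protein (5.77 and 28.3, 0.21). The nearest to Eomes were Mfsd7c (0.468 and 1.90, distance 0.02), Emp2 (0.467 and 1.85, 0.04) and Mog (0.452 and 1.83, 0.06). With only 2 libraries many genes can share such a pair of levels, and the distances describe these values alone.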

How the data were processed

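RNA-seq of WT and Eed-/- mESCs was analysed, with 1 library per genotype. Libraries were strand-specific and made after removal of ribosomal RNA. The deposited files give 1 FPKM per entry, which the authors computed on mm9 with TopHat and Cufflinks (TopHat2 2.0.11, Bowtie2 2.2.2 and Cufflinks 2.2.1 in the submitters' processing notes). The annotation and the Cufflinks options are not given in the sources used here. Other assays of the series were not analysed here.

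For the 268 symbols with several entries the sum was used. After quantile normalization, differences in log2(FPKM + 1) were taken where the mean reached 0.1, with 2-fold as the threshold. This scale understates differences of low genes. With 1 library per group no test was made. Fragments were obtained from FPKM, depth and the longest coding transcript less 160 bases, and are approximate for genes with several transcripts: with the shortest, Tbx3 had 101 and 389 fragments and Eomes 5.06 and 18.2. The libraries carry no molecular identifiers, so fragments are not independent molecules. Near-identical copies of genes were not searched for.

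Positions came from GENCODE vM1 on NCBIM37 (mm9), and promoters from RefSeq on GRCm38.p6, matched by symbol for 13 of 17 T-box genes. The members and gene lists were chosen with earlier results of these data known. Named were all T-box genes, Eed, up to 3 genes with the largest rise and fall past 2-fold of each list (or the highest gene where none passed), all germline targets of MGA that passed, and the 3 genes nearest to Tbx3 and Eomes. Dcn, Col1a1, Col3a1, Tle4, Ripply1, Tle6, Gata6, Sox17, Gata4, Sox7, Mesp1, Wnt3, Cdx2, Elf5, Tead4, Gata3, Tfap2a, Hand1, Tnnt2, Actc1, Myh6, Smyd1, Myh7, Nppb, Tbx3os2 and the neighbouring genes were named after their values were seen. So were S100a4, Lum, Col6a1, Ascl2, Gata2, Ets2, Wnt3a and Sp5. 1 gene of the heart, pharynx and limb list is not reported here and was left out of its counts. Alternatives used unscaled FPKM, median-ratio scaling (genes averaging 2 or more), a pseudocount of 0.1, no filter or a mean of at least 1, a 1.5-fold threshold, repeated symbols left out and unshortened transcripts. Subtracting the median of the chromosome was chosen after seeing the data. The computations were tested on simulated data. Computations were run in Python 3.11.15 with scipy 1.17.1, numpy 2.4.6 and pandas 2.3.3, and figures drawn with matplotlib 3.10.9.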

Additional observations from a re-analysis of the deposited data

How the results depend on the processing

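The number of members at least 2-fold higher was 1 with the FPKM as deposited, where Eomes was at 0.99, 1 with the chromosome's median subtracted, where it was at 0.998, and 2 under the other alternatives. Of the whole table, 1694 genes were higher and 1778 lower with a pseudocount of 0.1, and 1819 and 1841 at 1.5-fold, against 564 and 590. With the FPKM as deposited, 36.2% of the genes past 2-fold were higher, against 48.9% after quantile normalization, and the median of all genes was -0.09 against 0.01. Over 7 alternatives Tbx3 ranged from 1.97 to 2.29, past 2-fold in all 7, Eomes from 0.99 to 1.89, past 2-fold in 5, and Mga from 0.37 to 0.58, past it in none. Tbx15 ranged from 1.17 to 3.14, Tbx21 from 1.24 to 2.19, and Tbx18, from 0.49 to 2.10, passed 2-fold only with a pseudocount of 0.1. Of 82 changes of T-box genes under an alternative, 76 lay within the counting interval recentred on the normalized difference, 6 lay outside it, and 0 reversed a gene past 2-fold. Tbx20 ranged from -0.08 to 0.0047. The cause of these shifts was not tested. Genes under 3 fragments, such as Tbx1, Tbx5 and Tbx6, are limited by depth. No paired analysis was possible because each genotype has 1 library, which also leaves no library to leave out.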
